A study of Mus musculus with 2 samples.

Results

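The mitochondrial genome of the mouse carries 7 genes for subunits of NADH dehydrogenase (mt-Nd1, mt-Nd2, mt-Nd3, mt-Nd4l, mt-Nd4, mt-Nd5 and mt-Nd6) and the gene for cytochrome b (mt-Cytb). These 8 genes were chosen by symbol from the 55536 genes of the deposited tables, and all 8 were found. They were measured by total RNA sequencing in gastrocnemius, the large calf muscle, of 2 adult female B6CASTF1/J mice aged 8 to 10 months, hybrids that the labels also write as B6 X Cast. ERCC spike-ins were added to 300 ng of total RNA per library, ribosomal RNA was depleted, the kit kept strand, and neither animal is labelled with a treatment or an altered gene. Replicate 1 is the library labelled animal 1 and replicate 2 the one labelled animal 3, and they form 1 group, so no test between groups exists and no p-value was computed. Both carry 1 donor identifier in the labels but come from different tissue samples, and each SD here measures only the spread between these samples.

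NADH dehydrogenase, or complex I, takes electrons from NADH and passes them to ubiquinone while it pumps protons across the inner mitochondrial membrane. Complex III, which holds cytochrome b, passes the electrons on to cytochrome c. In muscle, which makes much of its ATP by respiration, both complexes are assembled from mitochondrial and nuclear gene products. The mitochondrial genome is transcribed as long RNAs from both strands that are cut into separate RNAs, mostly at the tRNAs between the genes. Of the 8 genes, mt-Nd6 alone is transcribed from the light strand, and the other 7 are transcribed from the heavy strand, with mt-Nd1 first and mt-Cytb last.

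The sequences of the 8 genes were read from the GENCODE M21 transcripts (mm10), in which each gene is 1 transcript on chromosome M with no intron. Overlap bears on how their reads can be counted, and base composition is given as a description whose effect on counts was not tested. The last bases of mt-Nd4l are the first bases of mt-Nd4, and the 2 stretches below show the 7 shared bases in capitals, 5′ to 3′.
mt-Nd4l 3′ end, chrM:10129-10173, plus strand: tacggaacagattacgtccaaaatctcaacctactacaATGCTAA
mt-Nd4 5′ end, chrM:10167-10211, plus strand: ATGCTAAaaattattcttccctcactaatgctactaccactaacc

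The capitals open with the start codon of mt-Nd4 and close with the stop codon of mt-Nd4l, in different frames. On the other side of mt-Nd4, mt-Nd5 and mt-Nd6 meet end to end on opposite strands and overlap by 14 bases, shown in capitals in each gene's own direction.
mt-Nd5 3′ end, chrM:13521-13565, plus strand: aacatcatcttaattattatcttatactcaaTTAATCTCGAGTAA
mt-Nd6 3′ end, chrM:13552-13596, minus strand: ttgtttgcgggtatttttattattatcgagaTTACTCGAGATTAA

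Base composition follows the strand. The first 60 bases of mt-Nd6 and of mt-Cytb are shown with every G in capitals, as examples of a light-strand and a heavy-strand transcript.
mt-Nd6, chrM:14011-14070, minus strand: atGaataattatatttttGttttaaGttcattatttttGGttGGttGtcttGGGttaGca
mt-Cytb, chrM:14145-14204, plus strand: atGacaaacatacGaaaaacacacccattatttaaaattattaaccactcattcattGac

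These stretches hold 12 G in mt-Nd6 and 3 in mt-Cytb. Over its whole length mt-Nd6 was 28.1% G and 5.97% C. The 7 heavy-strand transcripts ranged from 8.00% to 12.2% G and from 22.1% to 30.0% C, so their ranges did not include mt-Nd6. Its GC content of 34.1% lay inside the range of the other 7, from 33.0% to 41.1%. The annotated ends differed as well: 6 of the 8 genes end in a whole stop codon, while mt-Nd4 and mt-Cytb end in a lone T after their last whole codon, shown in capitals in their last 30 bases.
mt-Nd4 3′ end, chrM:11515-11544, plus strand: gtccaaaactaattacaggcctgacaataT
mt-Cytb 3′ end, chrM:15259-15288, plus strand: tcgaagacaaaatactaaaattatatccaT

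In mitochondria such a lone T is completed to a stop codon when the poly(A) tail is added.

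The libraries held 42714567 and 43421652 expected counts (estimated reads) in all. Markers of muscle fibres (Acta1, Ckm, Myh4, Tnnt3, Pvalb) summed to 80667 and 70673 TPM, a scale of transcript numbers corrected for length and set to the same total in each library. The heart muscle markers Nppa and Myl7 had at most 4 counts, and Ucp1 of brown fat had 0. Among Schwann cell markers, Mbp had 1093 counts in replicate 1 and 241 in replicate 2, Prx had 608 and 142, and Pmp22 had 610 and 259, each higher in replicate 1. The 2 small RNAs Rn7s1 and Rn7s2 together held 27.0% and 33.6% of all TPM, which leaves less of the fixed total for every other gene in replicate 2. In bulk tissue, fewer cells of a type and less RNA per cell cannot be told apart. Counting used strand: AY036118, which is wholly antisense to Gm42418, had 0 and 1 counts where Gm42418 had 50671 and 67464. Gm37376, antisense to Malat1, likewise had 1 and 0 counts against 35399 and 37607.

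Together the 8 genes held 26606 TPM in replicate 1 and 23928 TPM in replicate 2, which is 2.66% and 2.39% of all TPM. Their share of the reads themselves was 1.56% and 1.60%, so the order of the libraries differs between the scales. All 8 were far above the detection level of 1 TPM, and their expected counts ran from 10353 to 208424 reads. Among protein-coding genes, mt-Cytb ranked 13 in both libraries and mt-Nd6 ranked 51 and 56. The 2 mitochondrial ribosomal RNAs, the first genes of the heavy strand, summed to 4.18 and 4.02 times the TPM of the 8 genes, in libraries from which ribosomal RNA had been reduced. None of the 22 mitochondrial tRNA genes had a count, all being shorter than 101 bases.

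The gene for cytochrome b, the haem-carrying subunit at the core of complex III and its sole mitochondrial gene, was the highest of the 8. mt-Cytb (ENSMUSG00000064370.1) measured 6581 TPM in replicate 1 and 6207 TPM in replicate 2 (mean 6394 ± 265, SD, n = 2). Its counts were 192818 and 208424 reads, and both libraries lay above both values of every other member by the first quantification, the one made from transcriptome alignments.

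The highest ND gene was mt-Nd1 (ENSMUSG00000064341.1), whose product lies at the joint of the 2 arms of complex I, where ubiquinone is reduced. It measured 5002 and 4522 TPM (4762 ± 340, SD, n = 2). mt-Cytb was 1.32 and 1.37 times as high as mt-Nd1, a gap larger than the SD of either.

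The genes mt-Nd2, mt-Nd4 and mt-Nd5 encode the 3 related membrane subunits that carry proton channels. mt-Nd4 (ENSMUSG00000064363.1) measured 3649 and 3306 TPM (3478 ± 242, SD, n = 2). mt-Nd5 (ENSMUSG00000064367.1), the longest of the 8 at 1824 bases, measured 2536 and 2287 TPM (2411 ± 176, SD, n = 2). mt-Nd2 (ENSMUSG00000064345.1) measured 2003 and 1704 TPM (1854 ± 212, SD, n = 2). Each of these 3 subunits is present once in the complex, while both libraries placed their RNAs in the order mt-Nd4, mt-Nd5, mt-Nd2 without overlap. Within a library the ratio of mt-Nd5 to mt-Nd4 was nearly the same in both animals, at 0.695 and 0.692.

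The remaining genes, mt-Nd3, mt-Nd4l and mt-Nd6, encode small membrane subunits between the proton channels and the ubiquinone site. mt-Nd3 (ENSMUSG00000064360.1) measured 3366 and 3392 TPM (3379 ± 18.4, SD, n = 2), and was the only member with a higher TPM in replicate 2. mt-Nd4l (ENSMUSG00000065947.3), the shortest at 297 bases, measured 2537 and 1743 TPM (2140 ± 561, SD, n = 2). Its SD was the largest of the 8. mt-Nd6 (ENSMUSG00000064368.1) measured 932 and 768 TPM (850 ± 116, SD, n = 2), below every value of the other 7.

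By mean level the order was mt-Cytb, mt-Nd1, mt-Nd4, mt-Nd3, mt-Nd5, mt-Nd4l, mt-Nd2 and mt-Nd6. Neighbours were taken to differ where both libraries of one lay above both of the other and the gap between means exceeded the larger SD. By that rule 3 neighbouring pairs did not differ: mt-Nd4 and mt-Nd3, mt-Nd5 and mt-Nd4l, and mt-Nd4l and mt-Nd2. mt-Cytb held 24.7% and 25.9% of the TPM of the 8 genes, mt-Nd1 held 18.8% and 18.9%, and mt-Nd6 held 3.50% and 3.21%.

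**Figure D1:**
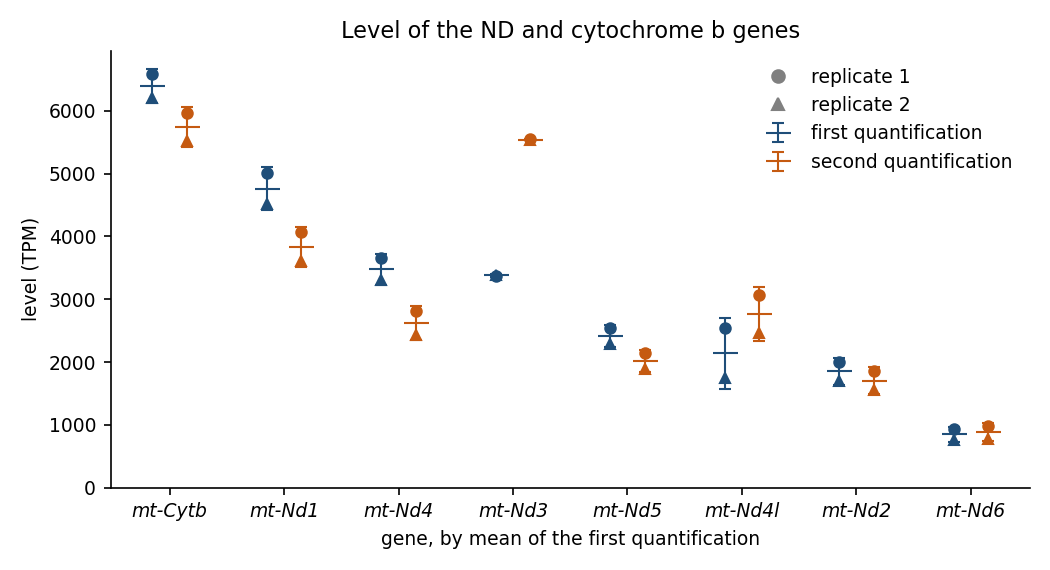
Level in TPM of each of the 8 genes (x axis) by the first and the second quantification; circles are replicate 1, triangles replicate 2, and bars the mean ± SD (n = 2). mt-Nd6 is lowest by both (850 and 887 TPM), and mt-Nd3 stands at 3379 TPM by the first and 5540 TPM by the second.

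The authors also deposited a second quantification, made directly from the reads. It gave a similar sum, 26444 and 23784 TPM, but another order. mt-Nd3 measured 5545 and 5534 TPM there, level with mt-Cytb at 5966 and 5511 TPM. mt-Nd1 came next with 4063 and 3612 TPM, and mt-Nd4l with 3075 and 2466 TPM stood beside mt-Nd4 with 2808 and 2433 TPM. mt-Nd5 (2141 and 1892 TPM), mt-Nd2 (1856 and 1552 TPM) and mt-Nd6 (989 and 784 TPM) took the last places, and mt-Nd4l stood above mt-Nd5 in both libraries. Of the 7 neighbouring pairs in this order, mt-Cytb and mt-Nd3 did not differ by the same rule, nor did mt-Nd4l and mt-Nd4.

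The difference for mt-Nd3 was not one of reads. The first quantification counted 23426 and 27056 reads for it and the second 23488 and 27248. The length by which reads were divided was 248 bases in the first and 112 and 111 bases in the second, of a gene of 348 bases. The first took 100 bases off every member's length, and the second took off more, so the relative gap widens as genes get shorter: for mt-Nd5 the effective lengths were 1724 and 1578 bases (replicate 1). The TPM of mt-Nd3 was accordingly 1.65 and 1.63 times as high by the second quantification, while that of mt-Nd5 was 0.844 and 0.827 times as high. Comparisons of short with long members therefore rest on the length model.

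The light-strand gene stood apart from the heavy-strand genes in both quantifications. The median of the 7 heavy-strand genes was 3366 and 3306 TPM, and mt-Nd6 reached 27.7% and 23.2% of it. By the second quantification it reached 32.2% and 31.8% of a median of 3075 and 2466 TPM. The nearest heavy-strand gene, mt-Nd2, was 2.15 and 2.22 times as high as mt-Nd6 by the first quantification, and 1.88 and 1.98 times as high by the second. The farthest, mt-Cytb, was 7.06 and 8.08 times as high by the first and 6.03 and 7.03 times by the second. Per length, mt-Nd6 was also far below mt-Nd5, the gene on the opposite strand with which it overlaps, at 2536 and 2287 TPM against 932 and 768 TPM. No 101-base stretch of mt-Nd6 was found in any other annotated gene, and the posterior SD of its count, a measure of how far reads were shared out, was 0.

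Level did not fall steadily with distance from the start of the heavy-strand genes. mt-Nd1, the first of the 7, was followed by mt-Nd2, which starts 1163 bases further on and was 2.50-fold lower in replicate 1 and 2.65-fold lower in replicate 2. mt-Nd3 starts 6708 bases from mt-Nd1, and mt-Nd4l, mt-Nd4 and mt-Nd5 start at 7126, 7416 and 8991 bases. The last gene, mt-Cytb, starts at 11394 bases and was 2.60 and 2.71 times as high as mt-Nd5 before it. mt-Rnr2, the ribosomal RNA gene just before mt-Nd1, was 13.2 ± 0.322 (SD, n = 2) times as high as mt-Nd1.

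Across the 7 heavy-strand genes the rank correlation of level with position was 0.21 in each library (Pearson 0.27 and 0.28). By the second quantification it was 0.18 and 0.036 (Pearson 0.34 and 0.34). These values describe 7 genes that come from shared precursor RNAs and the same 2 libraries, and they are not evidence of a trend.

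**Figure D2:**
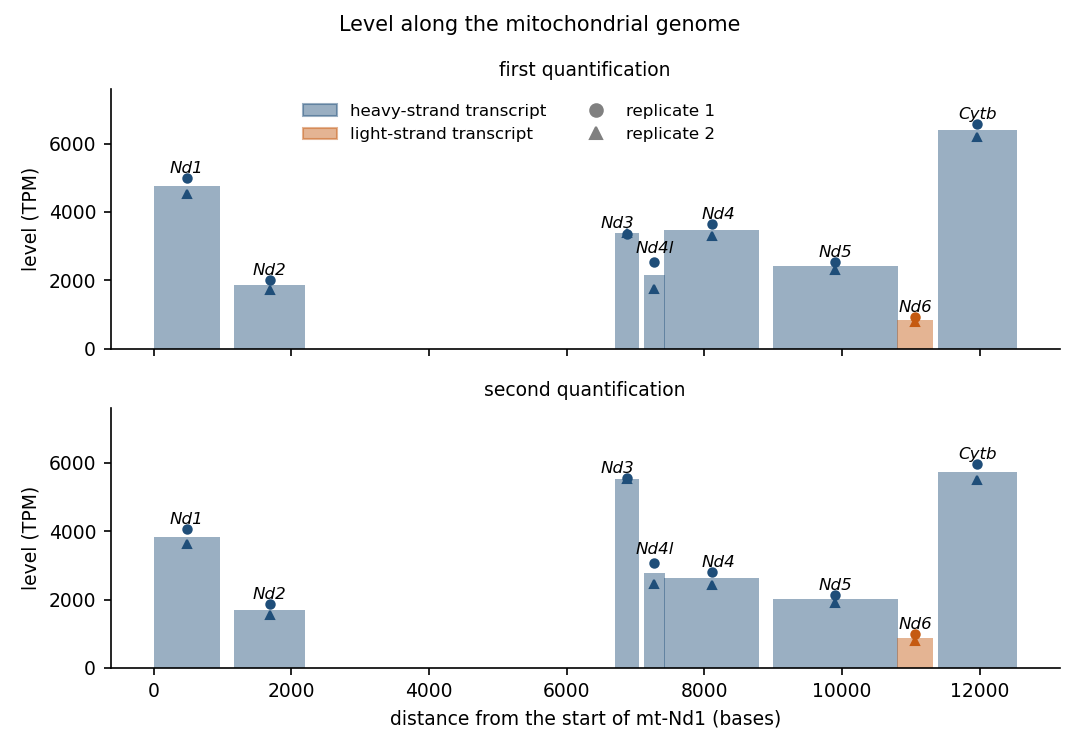
Level in TPM (y axis) against distance from the start of mt-Nd1 in bases (x axis); each bar spans a gene and has the mean of 2 libraries as its height, with circles for replicate 1 and triangles for replicate 2. mt-Nd6, on the light strand, is the lowest bar in both panels, and mt-Cytb, 11394 bases from mt-Nd1, is the highest.

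The gene pair mt-Nd4l and mt-Nd4, which overlap in the sequences shown above, is known to stay together on 1 RNA that is not cut between them, which holds both genes in equal number. By the first quantification mt-Nd4 was 1.44 and 1.90 times as high as mt-Nd4l, and by the second 0.913 and 0.987 times as high. The direction by the second quantification depends on reads placed on nuclear copies. It gave 634 and 671 TPM to Gm28439, a nuclear copy of part of mt-Nd4, and 0 to Gm10222, the copy of mt-Nd4l. Those values exceed the gap between the 2 genes in each library. With the copies added, mt-Nd4 would therefore stand above mt-Nd4l by both quantifications. The second counted fewer reads for mt-Nd4l, 9121 and 8523 against 14024 and 11042, but divided them by 78.5 and 77.8 bases in place of 197. For mt-Nd4 it counted 120147 and 122116 reads against 130883 and 135912, divided by 1132 and 1130 bases in place of 1278. Of stretches of 101 bases across the pair, 93 cross the boundary and lie within neither annotated transcript, so that a read of that length there fits neither gene.

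Part of the reads of mt-Nd4l, mt-Nd3 and mt-Nd4 could also be given to copies in the nuclear genome. Annotated copies of these 3 genes lie side by side on the minus strand of chromosome 1. Gm10222 (chr1:24612407-24612700) is identical to mt-Nd4l in all 294 of its bases. Gm28439 (chr1:24611535-24612410) is identical to mt-Nd4 in all 876 of its bases. Gm28438 (chr1:24612775-24613119) differs from mt-Nd3 in 1 of 345 bases, the substitution T3C counted from the 5′ end of mt-Nd3. Their first 40 bases are shown with that base in capitals, because it is the only one of the 345 compared at which gene and copy differ.
mt-Nd3, chrM:9459-9498, plus strand: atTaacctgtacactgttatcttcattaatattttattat
Gm28438, chr1:24613080-24613119, minus strand: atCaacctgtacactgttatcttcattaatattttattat

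Every stretch of 101 bases of each member was looked for in all other annotated transcripts. For mt-Nd4l 194 of 197 stretches occurred elsewhere, for mt-Nd3 242 of 248, for mt-Nd4 776 of 1278 and for mt-Nd2 29 of 938. For mt-Nd1, mt-Nd5, mt-Nd6 and mt-Cytb the number was 0. With shorter stretches of 31 bases, mt-Nd5 shared 302 of 1794, mt-Nd6 36 of 489 and mt-Cytb 73 of 1114, while mt-Nd1 shared 0. The 2 quantifications gave shared reads to different genes. The first counted 482 and 2865 reads for Gm10222, which is 3.32% and 20.6% of the reads of that copy and mt-Nd4l, and the second counted 0. The second counted 15104 and 18707 reads for Gm28439, which is 11.2% and 13.3% of the reads of that copy and mt-Nd4, and the first counted 0. For Gm28438 the first counted 0 and the second 7.58 and 0.188 reads.

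The deposited posterior SD comes with the first quantification and measures how firmly its model placed reads. Relative to the count it was largest for mt-Nd4l. It was 530 reads on a posterior mean count of 12524 in replicate 1 (4.23%) and 735 reads on 10604 in replicate 2 (6.93%). For the other 7 genes it was at most 0.163% of the count. By posterior means Gm10222 took 13.7% and 23.8% of the pair's reads, closer between the animals than the 3.32% and 20.6% of the expected counts.

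**Figure D3:**
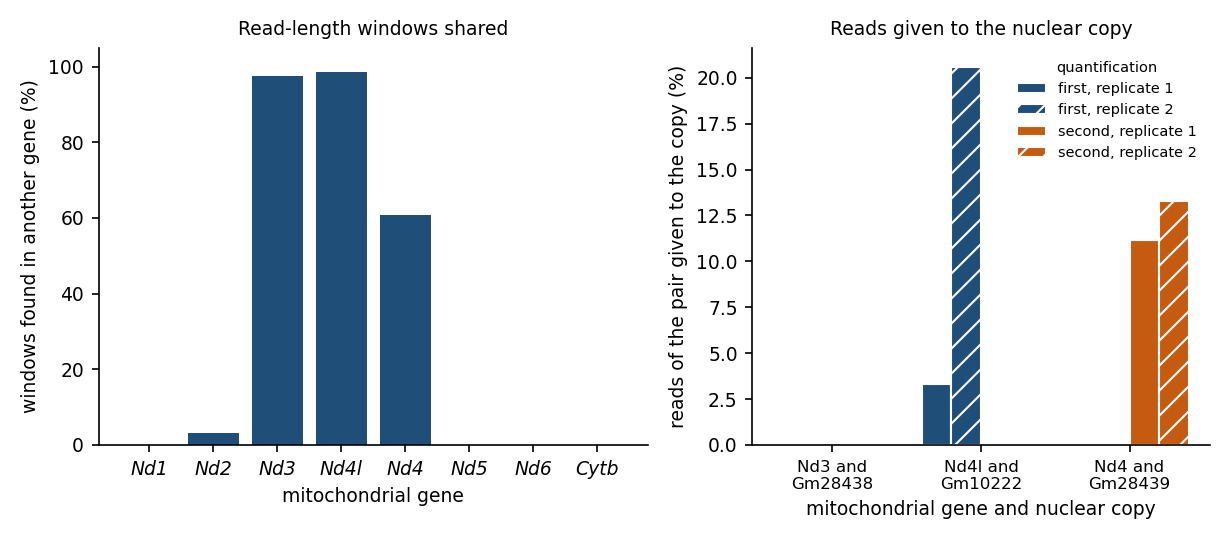
Left, share of 101-base windows of each gene found in another annotated gene (%, y axis); right, share of the reads of a gene and its nuclear copy that was given to the copy (%, y axis), by quantification and replicate. The first quantification gave 20.6% of the pair's reads to Gm10222 in replicate 2 and 3.32% in replicate 1, and the second gave 11.2% and 13.3% to Gm28439.

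The animals were compared by the log2 ratio of replicate 2 over replicate 1, from counts scaled to the library (TMM, edgeR), for the 11125 genes with a mean of at least 50 counts. All 8 members passed this minimum. No member was 2-fold apart, against 155 of all tested genes (1.39%), of which 76 were higher in replicate 2 (0.683%) and 79 in replicate 1 (0.71%). With a background this low, a count of 0 among 8 says little about these genes in particular. Their median log2 ratio was 0.03, with 5 above 0 and 3 below, beside a median of -0.0022 and 49.4% above 0 for all tested genes.

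For the members with no shared 101-base stretch the log2 ratio was 0.09 for mt-Cytb, 0.03 for mt-Nd1 and 0.03 for mt-Nd5, and -0.11 for mt-Nd6. For members with shared stretches of that length it was -0.06 (mt-Nd2), 0.03 (mt-Nd4) and 0.19 (mt-Nd3). The median distance from 0 was 0.12 over all tested genes and 0.06 over the 280 with counts at least as high as mt-Nd6, and mt-Cytb, mt-Nd3, mt-Nd6 and mt-Nd4l lay further from 0 than the latter. Counting error (95% half-width, Poisson) was 0.03 for mt-Nd3 and 0.04 for mt-Nd6, and it does not cover the spread between animals.

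mt-Nd4l had the largest ratio, -0.37, from 14024 and 11042 reads, and 14.3% of all tested genes were at least as far apart. Added to its copy Gm10222, it had 14506 and 13907 reads and a log2 ratio of -0.08, and by the second quantification the ratio was -0.12. For mt-Nd4, whose copy held reads only in the second quantification, the ratio there was 0.0022 alone and 0.04 with Gm28439 added. Scaling to the ERCC spike-ins moved the median of all tested genes to -0.12 and left only mt-Nd3 above 0, at 0.06, with mt-Cytb at -0.03 and mt-Nd4l at -0.49. The direction of mt-Cytb, mt-Nd1, mt-Nd4 and mt-Nd5 thus flips with the scaling. Spike-in scaling changes only the size set for each library, so by construction the members shift with the median of all genes.

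**Figure D4:**
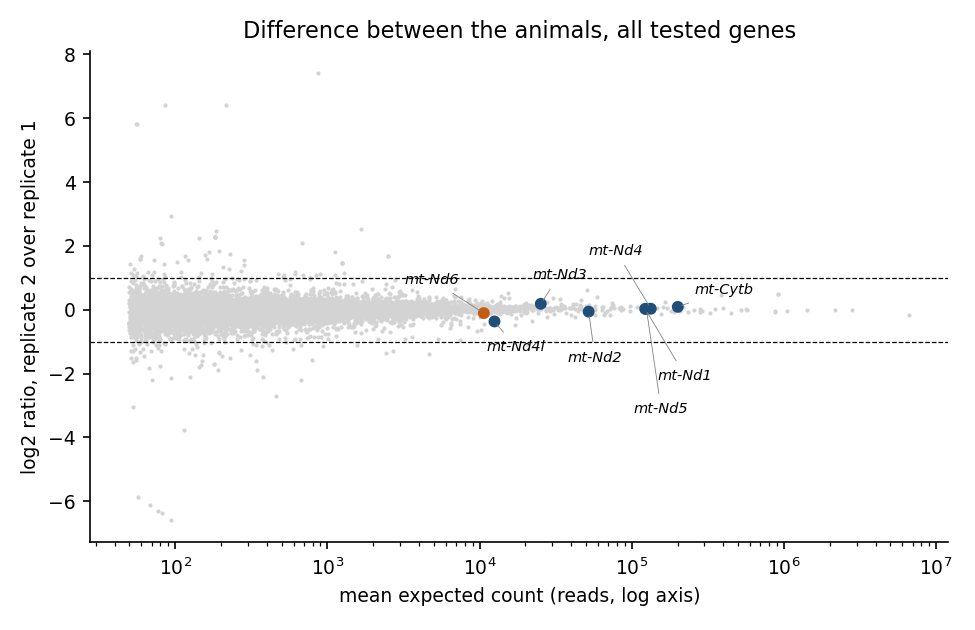
Log2 ratio of replicate 2 over replicate 1 (y axis) against mean expected count (x axis, log scale) for the 11125 tested genes in grey, with the 8 genes in colour and dashed lines at 2-fold. The 8 lie between -0.37 (mt-Nd4l) and 0.19 (mt-Nd3), inside the dashed lines.

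The nuclear genes of the same complexes were lower per gene. All 36 listed nuclear subunits of complex I and all 9 of complex III were detected, and in each library and quantification none reached the level of mt-Nd6. The highest of complex I was Ndufa3, a small accessory subunit, at 498 and 469 TPM, and of complex III Uqcrq, a small subunit, at 546 and 531 TPM. By the first quantification the median over the 36 genes was 192 and 182 TPM. The median over the 7 ND genes was 13.2 and 12.6 times that, and by the second quantification 16.1 and 14.2 times. mt-Cytb was 18.9 and 18.8 times the median of the 9 complex III genes by the first, and 16.3 and 16.6 times by the second.

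Other high nuclear subunits were Ndufc1 (469 ± 26.1 TPM) and Ndufb8 (415 ± 18.7 TPM), accessory subunits of the membrane arm, and the lowest was Ndufb3 (59.8 ± 3.03 TPM). In complex III they were Uqcr10 (438 ± 16.6 TPM) and the core subunit Uqcrc1 (383 ± 24.5 TPM), with the cytochrome c1 gene Cyc1 lowest by mean (217 and 187 TPM). As sums by the first quantification, the 7 ND genes held 2.62 and 2.48 times the TPM of the 36 nuclear genes. mt-Cytb held 2.12 and 2.11 times that of the 9. By the second quantification these were 2.66 and 2.58 times, and 1.84 and 1.85 times. By the first, the spread among the 7 mitochondrial genes of complex I, from mt-Nd6 to mt-Nd1, was 5.36-fold in replicate 1 and 5.89-fold in replicate 2. No subunit in either list was 2-fold apart between the animals, which is near the 1.39% of all tested genes and is no result about the subunits. The median log2 ratio was 0.07 for complex I (32 of 36 above 0) and 0.10 for complex III (9 of 9 above 0), and with spike-in scaling it was -0.05 (4 of 36) and -0.02 (2 of 9). Of all tested genes 49.4% were above 0, and 22.7% with spike-in scaling.

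**Figure D5:**
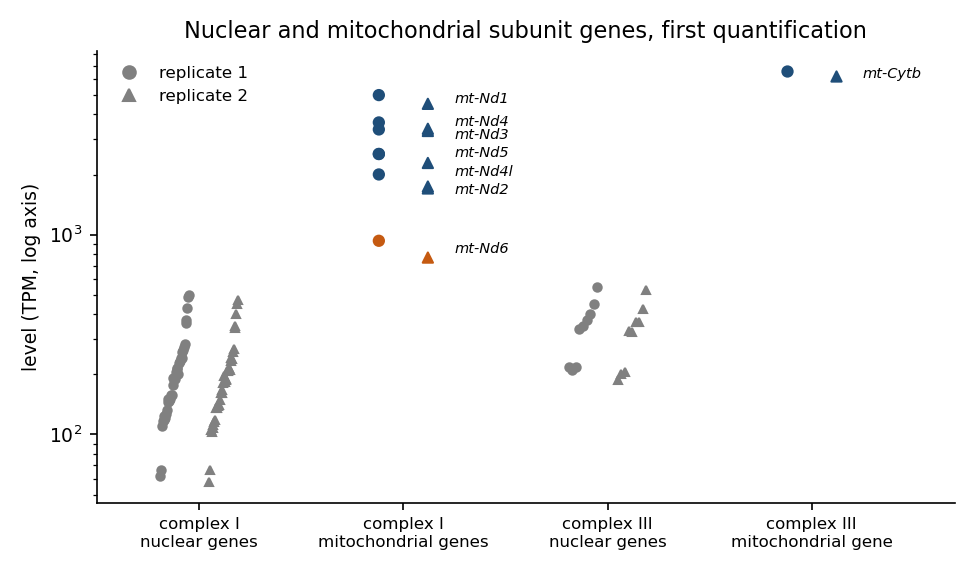
Level in TPM (y axis, log scale) of the nuclear and mitochondrial subunit genes of complexes I and III by the first quantification; each point is a gene, circles for replicate 1 and triangles for replicate 2. mt-Nd6 (932 and 768 TPM) is the lowest mitochondrial gene and lies above the highest nuclear gene, Uqcrq (546 and 531 TPM).

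The assembly factors of the complexes ranged more widely. The 15 assembly factors of complex I summed to 214 ± 10.2 TPM. They were led by Ecsit (41.6 ± 1.81 TPM), Timmdc1 (21.8 ± 1.40 TPM) and Ndufaf5 (19.3 ± 0.799 TPM), with Nubpl, which delivers iron-sulphur clusters, at 2.19 ± 0.0354 TPM. The 6 assembly factors of complex III summed to 341 ± 30.1 TPM. Their highest, Uqcc2 (209 ± 15.9 TPM) and Uqcc1 (72.0 ± 8.68 TPM), act together on newly made cytochrome b. Uqcc3, also needed for cytochrome b, was at 27.8 ± 2.38 TPM, and Lyrm7, which acts on the iron-sulphur subunit, was lowest at 7.92 and 6.22 TPM. None of these 21 was 2-fold apart, beside 1.39% of all tested genes, a count too small to set these lists apart. The median log2 ratios were 0.14 (14 of 15 above 0) for complex I and 0.05 (5 of 6) for complex III, and with spike-in scaling 0.02 (8 of 15) and -0.08 (2 of 6). Among all tested genes the shares above 0 were 49.4% and, with spike-in scaling, 22.7%.

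Other nuclear genes transcribe and process mitochondrial RNA. Of the 8 genes of the transcription machinery, which summed to 89.6 ± 6.20 TPM, the highest were Tfam (21.9 ± 3.17 TPM), which packs mitochondrial DNA and starts transcription, the initiation factor Tfb2m (20.4 ± 1.03 TPM) and the RNA polymerase Polrmt (17.0 ± 0.233 TPM). Mterf2 was the lowest detected, at 4.67 ± 1.09 TPM, and Mterf1a, at 0.560 and 1.03 TPM, did not pass the count minimum. The 7 tested had a median log2 ratio of 0.0054, with 4 above 0.

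The 19 factors for RNA processing, stability and decay summed to 439 ± 21.6 TPM. Fastk was highest (103 ± 3.81 TPM), and a mitochondrial form of its protein is known to stabilise the mt-Nd6 RNA. Slirp (75.6 ± 0.0212 TPM) binds heavy-strand mRNAs together with Lrpprc, and Grsf1 (52.6 ± 3.35 TPM) binds light-strand RNAs, that of mt-Nd6 among them. Pde12, which shortens poly(A) tails, was lowest at 1.70 ± 0.262 TPM. None of the 26 tested genes of both lists was 2-fold apart, again near the 1.39% of all tested genes, and the median log2 ratio of the 19 was 0.07, with 13 above 0. Of all tested genes 49.4% were above 0 by the main scaling. With spike-in scaling 6 of the 19 and 2 of the 7 were above 0, beside 22.7% of all tested genes.

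By the absolute difference in log2 TPM summed over the 2 libraries, the nuclear protein-coding genes nearest in level to mt-Cytb were Gapdh, a glycolytic enzyme (6518 and 5837 TPM, summed difference 0.10), the calcium buffer Pvalb (7621 and 6565 TPM, 0.29) and the fast troponin I gene Tnni2 (8143 and 7434 TPM, 0.57). Nearest to mt-Nd6 were the RNA-binding protein gene Ybx3 (932 and 831 TPM, 0.12), the kinase gene Mylk4 (899 and 826 TPM, 0.16) and the translation factor gene Eef1a2 (948 and 847 TPM, 0.16). With 2 libraries of 1 tissue, likeness here means likeness of level only.

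The 8 genes made up 58.3% and 56.6% of the TPM of all 13 mitochondrial protein-coding genes, and by the second quantification 47.4% and 48.7%. These shares rest also on the other 5 genes, whose levels differed between the quantifications. mt-Co3 measured 1287 and 1249 TPM by the first and 5724 and 4614 TPM by the second. mt-Atp6 measured 2441 and 3327 against 9135 and 7880 TPM, and mt-Co2 108 and 165 against 1261 and 803 TPM. Lower by the second were mt-Atp8 (1650 and 1270 against 1.24 and 1.59 TPM) and, slightly, mt-Co1. With the other 5 genes, for subunits of complex IV and ATP synthase, the sum was 45675 and 42254 TPM by the first quantification and 55833 and 48880 TPM by the second. The sums of the 8 differed between the quantifications by less than their SD.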

How the data were processed

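Per the deposited description files, the authors made a gene table from transcriptome alignments (the first quantification) and a transcript table directly from reads (the second), on mm10 with GENCODE M21. Which programs were used is not given in the sources used here. In the authors' tables an expected count is an unnormalized estimate of a gene's reads, with reads that fit several genes shared out. The deposited TPM values are counts per effective length scaled to a fixed total per library, spike-ins included. All 55536 gene identifiers matched GENCODE M21, which gave coordinates and transcript sequences. Windows of 101 bases were used because the deposited effective length is the length less 100.

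Rounded expected counts were scaled by TMM in edgeR 4.0.16 (R 4.3.3), with log2 ratios from CPM after adding 2 as prior count. Comparison was limited to genes averaging 50 counts or more, and at least 2-fold counted as apart. The step was run on simulated counts with 200 genes changed 4-fold, of which it called 99.5% in the right direction. It also called 4 unchanged genes. The simulated spread was set rather than taken from these animals, and changes below 2-fold were not simulated. Named are the 8 genes, their copies, the 3 highest and the lowest detected gene of each list and the 3 nearest in level to mt-Cytb and mt-Nd6. The members and lists were chosen with earlier results of these data known. Alternatives were the second quantification, posterior means, annotated length, copies added, nuclear rescaling, DESeq2 1.42.0, spike-ins, other count minimums and each animal left out. Prorp was found under an older symbol. Tables were handled in Python 3.11.15 with pandas 2.3.3. A marker gene of the lists is not reported here.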

Additional observations from a re-analysis of the deposited data

How the results depend on the processing

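No paired analysis was possible because both animals belong to the same group. With 2 animals the SD rests on 1 difference, and depth was not limiting for the 8 genes (at least 10353 reads), except where reads are shared with copies.

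The summed level of 25267 TPM became 55217 TPM when rescaled over nuclear protein-coding genes, a change of scale. It stayed within its SD by the second quantification, posterior means, annotated length and with copies added. Leaving out either animal could not take it beyond the SD, because with n = 2 each library lies within the SD of the mean. The second quantification moved mt-Nd6 from 25.5% to 32.0% of the heavy-strand median and the rank correlation along the strand from 0.21 to 0.11. It moved the ratio of mt-Nd4 to mt-Nd4l from 1.67 to 0.950 (2.33 by annotated length). That 0.950 leaves out the reads it gave to Gm28439, the copy of mt-Nd4. The order of the 8 genes had a rank correlation with the main order of 0.833 by the second quantification, 0.976 by annotated length or with copies added, and 0.976 to 0.976 without either animal. Spike-in scaling moved the median log2 ratio of the 8 from 0.03 to -0.095. The 155 genes 2-fold apart became 580 with a minimum of 10 counts and 2578 with none.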
